A study of Mus musculus with 2 samples.

Results

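The semaphorin, plexin and ephrin guidance genes were described as 1 family of signals across the cells of the lateral hypothalamic area (LHA). The members were all gene symbols of the count tables that begin with Sema, Plxn, Epha, Ephb, Efna or Efnb and a number or letter of the family, together with Nrp1 and Nrp2, where 10 or more transcripts were counted over both libraries. This gave 54 of 28692 genes. There were 7 secreted semaphorins, 13 membrane-bound semaphorins, 12 plexins and neuropilins, 8 ephrins and 14 Eph receptors. Of 56 matching symbols, Plxna4os2 and Plxna4os3 had 1 and 0 transcripts and were left out. Plxna4os1, an antisense transcript within Plxna4, stayed in the list. The use of strand in counting is not given, so it is not known here whether its reads were kept apart from those of Plxna4.

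Semaphorins are signals that steer growing axons and migrating cells. Secreted ones bind neuropilins, which pass the signal on through plexins, whereas membrane-bound ones mostly bind plexins directly. Ephrins are membrane ligands of the Eph receptor kinases, and both sides can signal when cells touch: A-type ephrins are held by a lipid anchor and B-type ephrins span the membrane. In the adult brain both systems are known for roles at synapses, in vessels and in the oligodendrocyte lineage. The LHA is a region known for its part in feeding and arousal, and holds the neurons that make hypocretin (orexin, Hcrt) and melanin-concentrating hormone (Pmch).

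The data were 2 droplet single-cell libraries of the LHA of C57BL/6 mice at postnatal day 30, made on the 10x Chromium system with its v2 reagents. There a unique molecular identifier (UMI) marks every captured transcript. The library labelled male was a pool of 3 animals and the library labelled female a pool of 2. No treatment or genotype was compared, so the comparisons here are between cell classes of the same libraries. The study set out to tell apart the inhibitory and excitatory neurons of the region. The sex genes went against the labels: Xist had 20641 UMIs in the library labelled male and 30 in the library labelled female, and the Y-linked Ddx3y had 0 and 4524. The libraries are therefore named by their labels only, and pairs of values below are in the order labelled male, labelled female.

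After filtering, 3181 and 3515 cells remained, from 3439 and 3793 barcodes with medians of 5718 and 6289 UMIs. The libraries shared 18 barcodes. Cells were clustered without the 54 guidance genes, and clusters were named from marker genes, so each class name below means cells like that type. Neurons numbered 2039 and 2266. They were split into inhibitory cells with Slc32a1 and no Slc17a6 UMI (984 and 1110 cells) and excitatory cells in the reverse case (711 and 786). In Hcrt-high neurons (83 and 83) and Pmch-high neurons (85 and 61) the named peptide gene took at least 0.3% of a cell's UMIs, and other excitatory neurons (600 and 689) were excitatory cells below that for both. Both peptide gates were taken from all neurons, whatever their Slc32a1 and Slc17a6 UMIs. Their cells thus need not be excitatory by the rule above. The oligodendrocyte lineage held precursors (76 and 88), newly formed oligodendrocytes (74 and 104) and mature oligodendrocytes (609 and 595). Vascular cells were endothelial (75 and 66), mural (9 and 32), fibroblasts (22 and 31), or mixed (72 and 87), the last with markers of more than 1 vascular class. Astrocytes numbered 118 and 185 and microglia 69 and 39. UMIs were summed per class and library and are given as CPM (UMIs of a gene per 1000000 UMIs of that class in that library). Hemoglobin markers summed to 92090 and 68160 CPM in endothelial cells, against 37.1 and 83.2 CPM in mural cells and 52.9 and 85.0 CPM in fibroblasts, and these UMIs count in the totals that CPM is based on.

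Over 12 classes (inhibitory, Hcrt-high, Pmch-high and other excitatory neurons, the 3 oligodendrocyte stages, endothelial cells, mural cells, fibroblasts, astrocytes and microglia), 32 of the 54 members reached 50 CPM in both libraries in at least 1 class. Newly formed oligodendrocytes were the class of highest level for 8 of these, endothelial cells for 5, inhibitory neurons and astrocytes for 4 each, Pmch-high neurons, other excitatory neurons and fibroblasts for 3 each, and mature oligodendrocytes and microglia for 1 each. These are descriptions of levels, ranked by the lower of the 2 libraries. Among the secreted semaphorins, Sema3c and Sema3g were highest in endothelial cells and Sema3d in the early oligodendrocyte lineage. Among the membrane semaphorins, Sema4a, Sema4d, Sema4f, Sema5a and Sema6a were highest in newly formed oligodendrocytes, Sema4b and Sema6d in astrocytes, Sema7a in endothelial cells and Sema6b in inhibitory neurons. Among the receptors for semaphorins, Nrp1 was highest in endothelial cells, Plxnb3 in newly formed oligodendrocytes, Plxnb1 in astrocytes, Plxnb2 in microglia and Plxna2 in Pmch-high neurons. Plxnb1 had 203 and 154 CPM in astrocytes, against 44.5 and 52.5 CPM in mature oligodendrocytes, its next class. Nrp2 and Plxna1 were highest in inhibitory neurons and Plxna4 and Plxnc1 in other excitatory neurons.

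For 9 of the 32, Efnb1, Efnb2, Nrp2, Plxnb2, Plxnc1, Sema3d, Sema4a, Sema6b and Sema6d, another class overlapped the highest, so their order is not settled by these 2 libraries. Nrp2 had 80.4 and 82.3 CPM in inhibitory neurons and 80.4 and 82.7 CPM in other excitatory neurons. Sema6b had 95.9 and 100.2 CPM in inhibitory neurons and 97.0 and 87.3 CPM in other excitatory neurons. Efnb2 had 52.9 and 85.0 CPM in fibroblasts and 49.2 and 72.5 CPM in endothelial cells. The ranking of these 3 genes thus rests on small differences. Sema3d had 135.8 and 113 CPM in newly formed oligodendrocytes and 144 and 100.2 CPM in precursors. Sema4a had 109.8 and 116 CPM in newly formed oligodendrocytes and 131 and 73.2 CPM in astrocytes. Sema6d had 244.5 and 204 CPM in astrocytes and 168 and 258 CPM in newly formed oligodendrocytes. Ephrins and Eph receptors were spread over more classes. Efnb3 was highest in mature oligodendrocytes, Efnb1 and Efnb2 in fibroblasts and Efna5 in Pmch-high neurons. Epha5 was highest in Pmch-high neurons, Ephb1 in newly formed oligodendrocytes, Ephb4 in endothelial cells, Epha3 in fibroblasts, Ephb3 in astrocytes, Epha4 in inhibitory and Epha10 in other excitatory neurons. The other 22 members were below 50 CPM in at least 1 library in each of the 12 classes. Over all barcodes the members ranged from 13 UMIs for Efna4 to 12363 for Epha5. On GRCm38 (GENCODE M21) the genes that recur below lie at chr13:51685529-51793747 (Sema4d, minus strand), chr11:69554092-69560205 (Efnb3, minus strand), chr9:101922128-102354693 (Ephb1, minus strand), chr1:194618218-194816869 (Plxna2, plus strand), chr5:84054761-84417382 (Epha5, minus strand) and chr5:17574281-17730268 (Sema3c, plus strand). An annotated gene on the opposite strand overlaps 22 members, Ephb4, Sema4d, Epha5 and Ephb1 among them. Whether its reads were kept apart from theirs is not known here, since the use of strand in counting is not given.

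**Figure D1:**
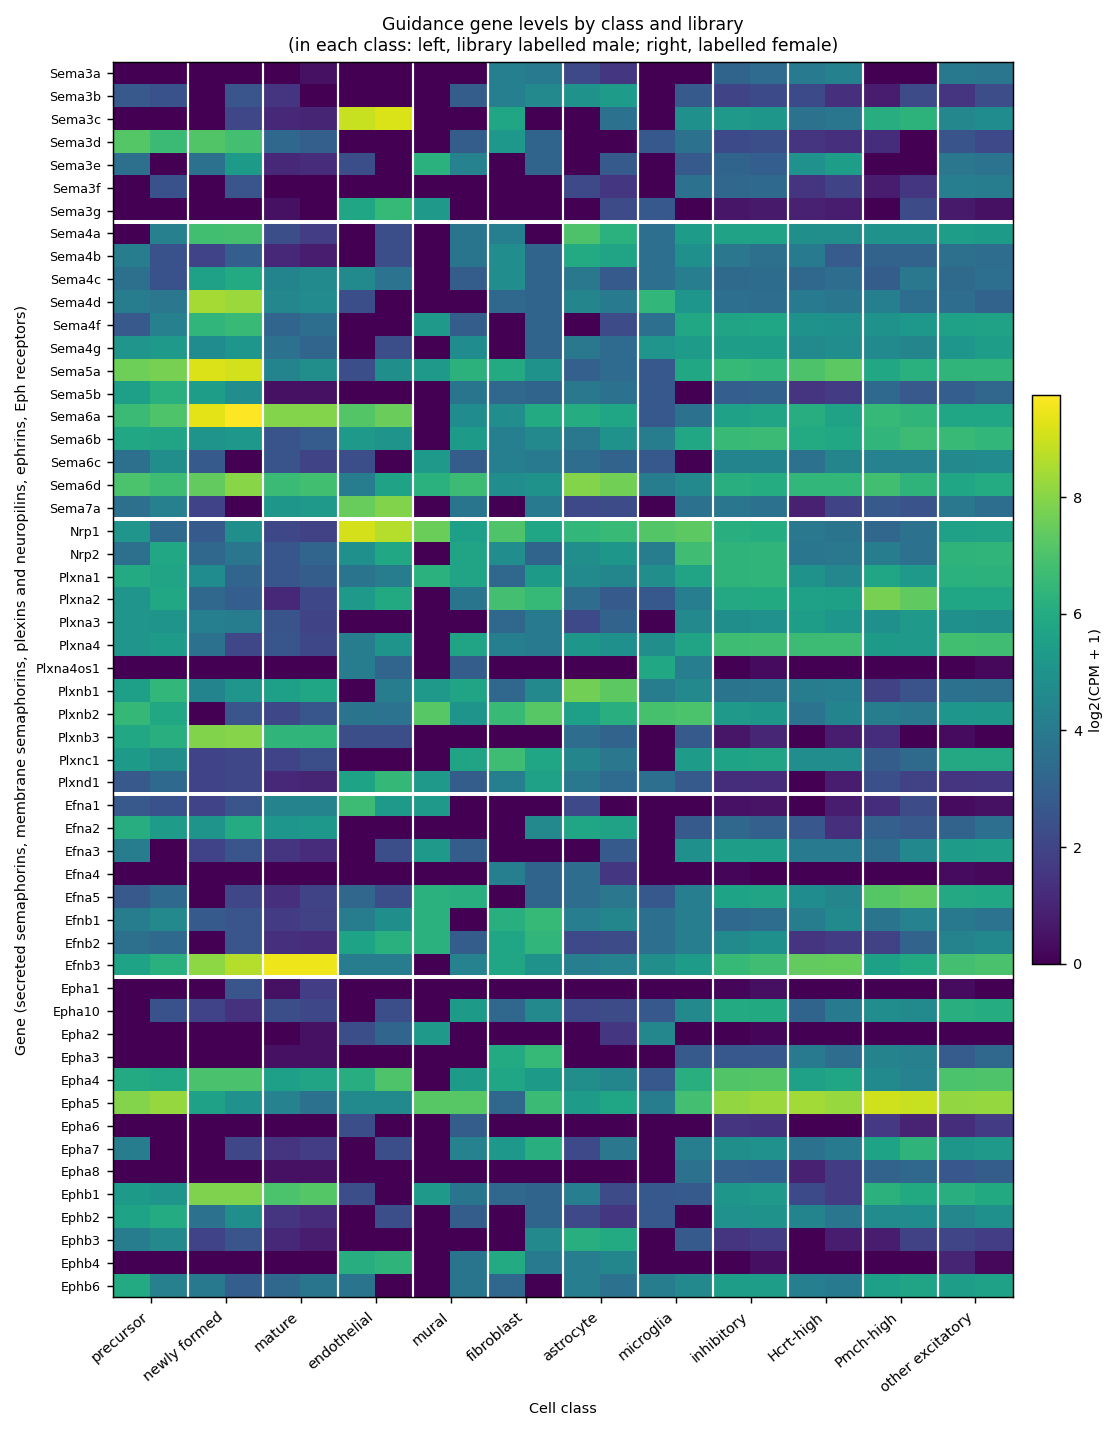
Levels of the 54 guidance genes (rows, by role) in 12 cell classes (columns, 1 column per library), as log2(CPM + 1); colours are to be read along a row. The membrane semaphorins Sema4d, Sema5a and Sema6a are brightest in newly formed oligodendrocytes, Efnb3 in mature oligodendrocytes, Sema3c and Nrp1 in endothelial cells, and Epha5 in Pmch-high neurons.

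Promoter sequences are shown for 3 members ranked highest in newly formed oligodendrocytes and for 3 ranked highest in endothelial cells, the classes with the highest level of 8 and of 5 members. For Sema4a and Sema3d that rank is not settled, since another class overlapped. RefSeq promoters on GRCm38.p6 matched 47 of the 54 members. Each sequence covers the 250 bases before an annotated start in a window free of annotated exons, 5′ to 3′ on the gene's strand. The start taken was the nearest to the gene's annotated 5′ end with such a window. The Sema4d window lies at chr13:51739447-51739696 (minus strand, 1 of 3 starts in the table), Sema4a at chr3:88461183-88461432 (minus strand, 1 of 4 starts) and Sema3d at chr5:12382916-12383165 (plus strand). The Sema4d window belongs to a start inside the gene and does not lie before the gene's annotated 5′ end. That of Nrp1 lies at chr8:128358823-128359072, Sema7a at chr9:57939862-57940111 and Ephb4 at chr5:137349859-137350108, all on the plus strand. Capitals mark matches to 3 motifs on either strand.
Sema4d: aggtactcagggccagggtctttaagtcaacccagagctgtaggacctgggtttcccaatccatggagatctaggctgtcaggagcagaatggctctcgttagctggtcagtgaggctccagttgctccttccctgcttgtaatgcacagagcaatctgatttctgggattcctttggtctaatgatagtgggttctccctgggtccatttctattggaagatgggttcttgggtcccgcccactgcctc
Sema4a: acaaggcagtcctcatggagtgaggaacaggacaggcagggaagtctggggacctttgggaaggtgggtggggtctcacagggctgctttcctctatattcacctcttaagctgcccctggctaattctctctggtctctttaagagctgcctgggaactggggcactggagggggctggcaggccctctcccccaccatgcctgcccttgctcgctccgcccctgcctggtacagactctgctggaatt
Sema3d: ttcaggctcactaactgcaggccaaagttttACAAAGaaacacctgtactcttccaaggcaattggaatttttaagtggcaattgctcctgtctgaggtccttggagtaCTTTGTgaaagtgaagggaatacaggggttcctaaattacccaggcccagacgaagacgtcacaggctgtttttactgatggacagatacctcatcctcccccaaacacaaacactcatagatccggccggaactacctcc
Nrp1: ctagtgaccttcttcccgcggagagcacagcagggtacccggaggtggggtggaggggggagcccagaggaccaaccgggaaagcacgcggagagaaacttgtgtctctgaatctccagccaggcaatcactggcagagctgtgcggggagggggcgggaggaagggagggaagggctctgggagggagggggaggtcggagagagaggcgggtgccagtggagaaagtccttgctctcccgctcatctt
Sema7a: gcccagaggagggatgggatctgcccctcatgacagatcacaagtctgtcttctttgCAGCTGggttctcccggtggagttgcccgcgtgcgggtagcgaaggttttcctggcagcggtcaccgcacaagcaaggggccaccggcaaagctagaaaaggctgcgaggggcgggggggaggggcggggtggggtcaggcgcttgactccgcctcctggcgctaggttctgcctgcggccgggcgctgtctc
Ephb4: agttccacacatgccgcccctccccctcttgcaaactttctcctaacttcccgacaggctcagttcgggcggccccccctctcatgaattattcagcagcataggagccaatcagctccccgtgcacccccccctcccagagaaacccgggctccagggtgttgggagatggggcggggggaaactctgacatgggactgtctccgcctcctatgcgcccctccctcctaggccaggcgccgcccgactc
The motifs were ACAAAG, a core bound by SOX factors, CAGCTG, a form of E-box, and CCGGAAG, a core bound by ETS factors. The SOX letters occurred in the Sema3d window, beginning 219 and 141 bases before the start, and the E-box letters in the Sema7a window, beginning 193 bases before it. None of the 3 occurred in the other 4 windows shown. Among all 32851 promoters of the same length, 16.5% held the SOX letters, 13% the E-box letters and 6.91% the ETS letters. Among the 47 matched members 7, 9 and 2 held them before at least 1 of their starts. That is a count per gene over all its starts, so it is not on the scale of the shares per promoter. A match is a description of letters and not of binding. The CpG dinucleotides numbered 2, 2 and 4 in the Sema4d, Sema4a and Sema3d windows, and 11, 17 and 12 in the Nrp1, Sema7a and Ephb4 windows. The genes shown were picked, so these counts describe single windows and not genes of the 2 cell classes.

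Newly formed oligodendrocytes were set against precursors first. Most membrane semaphorins that could be tested were higher in newly formed cells, and most plexins that were called were lower. Of the 54 members, 27 passed the filter on low counts, 11 were called higher and 7 lower, all at 2-fold or more. A gene was called at an adjusted p under 0.05. The test was the quasi-likelihood test of edgeR with the library as a block, and p was adjusted over all genes by the Benjamini-Hochberg method. Over all 8177 genes tested 29.3% were called, 15.3% higher and 14% lower, with 997 higher and 1011 lower at 2-fold or more. The tested members' median log2 fold change was 0.22, against 0.02 over all genes. Of the 27, 10 had fewer than 10 UMIs in 1 of the classes. DESeq2 called 11 higher and 2 lower, and 716 and 587 of all 8177 genes. Fitted fold changes sat 0.27 above the plain log2 ratio of CPM, as a median over genes, because of the TMM scaling. In this and every other comparison, each call had the same direction in the plain mean CPM.

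Sema4d, a ligand of Plxnb1, had 347 and 307 CPM in newly formed oligodendrocytes, against 16.6 and 13.7 CPM in precursors (log2 fold change 4.69 ± 0.35 SE, adjusted p = 1.45e-11). Sema6a, a membrane ligand of A-type plexins, had 644 and 860.0 CPM, against 99.4 and 132 CPM in precursors (2.97 ± 0.21, adjusted p = 4.65e-12). Sema5a, which carries thrombospondin repeats outside the cell, had 601 and 538.5 CPM, against 193 and 214 CPM (1.75 ± 0.19, adjusted p = 3.22e-08). Sema4a had 109.8 and 116 CPM, against 0 and 18.2 CPM, from 0 and 4 UMIs in precursors. Sema4f had 83.8 and 96.3 CPM against 5.52 and 18.2 CPM, and Sema4c 46.2 and 62.0 CPM against 11.04 and 4.55 CPM. For Sema4c the 54 UMIs in newly formed cells against 3 in precursors gave a CPM ratio of 7.52, with an exact 95% interval of 2.44 to 37.6. For each of these 6 genes both newly formed values lay above both precursor values. Sema7a was called lower, with 1 UMI in newly formed cells against 6 in precursors, a ratio, precursors over newly formed cells, of 14.4 with an exact 95% interval of 1.74 to 660.4.

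Plxnb3, a plexin known from oligodendrocytes and a receptor for Sema5a, was also higher. It had 237 and 253 CPM in newly formed oligodendrocytes, against 55.2 and 68.3 CPM in precursors (2.25 ± 0.27, adjusted p = 1.1e-07). Plxnb2, Plxnc1, Plxna2, Plxna4 and Plxna1 were all called lower, with log2 fold changes between -4.16 and -1.59. Plxnb2 had 0 and 4.90 CPM in newly formed cells, against 88.3 and 54.6 CPM in precursors, from 3 and 28 UMIs, a ratio, precursors over newly formed cells, of 22.3 with an exact 95% interval of 6.90 to 115. Plxna4 had 11.6 and 3.26 CPM against 33.1 and 41.0 CPM. For Plxnc1, 3 UMIs against 13 gave a ratio in the same sense of 10.4 (exact 95% interval 2.85 to 56.7). Under DESeq2 the calls of Plxnc1, Plxna2, Plxna4 and Plxna1 were lost, with adjusted p of 0.0548, 0.0801, 0.103 and 0.16. The neuron markers summed to 430.5 and 455 CPM in newly formed cells and to 795 and 915 CPM in precursors, and their part in these differences was not tested.

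Among the ephrins and Eph receptors, Ephb1, a receptor for B-type ephrins, had 234 and 235 CPM in newly formed oligodendrocytes, against 38.7 and 31.9 CPM in precursors (3.01 ± 0.30, adjusted p = 6.07e-09). Efnb3, a B-type ephrin, had 269 and 405 CPM against 49.7 and 72.9 CPM (2.73 ± 0.26, adjusted p = 2.96e-09). Epha4, which binds ephrins of both types, had 124 and 122 CPM against 60.7 and 54.6 CPM (1.37 ± 0.30, adjusted p = 0.00081). Epha5 was the Eph receptor that fell: 46.2 and 29.4 CPM in newly formed cells, against 243 and 291 CPM in precursors (-2.62 ± 0.29, adjusted p = 4.83e-08). All neurons together had 303 and 306 CPM of Epha5. With cells thinned to 3000 UMIs only 4 and 4 precursors were deep enough, and 3 of 16 tested members were called. Over all 5041 genes tested there, 262 were called higher and 68 lower. The calls of Sema4a, Sema4f, Sema5a, Plxnb3, Plxnb2, Ephb1, Efnb3 and Epha4 were then lost, with adjusted p from 0.0503 for Efnb3 to 0.246 for Epha4.

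Mature oligodendrocytes had lower levels of most tested guidance genes than newly formed ones. Of 27 tested members, 3 were called higher and 16 lower in mature cells, against 35% of all 8177 genes called, 18% higher and 17% lower. At 2-fold or more, 3 were higher and 13 lower, where all genes gave 9.88% higher and 11.4% lower. The members' median log2 fold change was -1.13, against -0.01 over all genes. All 11 tested membrane semaphorins were called, 1 higher and 10 lower. Of the 27, 7 had fewer than 10 UMIs in 1 of the classes. The 2 stage comparisons use the sums of newly formed cells, so their values are not independent. DESeq2 called 2 higher and 10 lower, and 686 and 689 of all 8177 genes. The median shift of fitted values by TMM was 0.45.

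Sema5a had 19.9 and 27.1 CPM in mature oligodendrocytes, against 601 and 538.5 CPM in newly formed ones (log2 fold change -4.14 ± 0.17, adjusted p = 3.43e-17). Sema4d had 22.1 and 25.4 CPM, against 347 and 307 CPM (-3.32 ± 0.17, adjusted p = 2.88e-15). Sema6a had 243 and 245 CPM in mature cells, against 644 and 860.0 CPM (-1.17 ± 0.14, adjusted p = 6.39e-08). Sema4a had 4.05 and 2.37 CPM against 109.8 and 116 CPM, and Sema4f 8.09 and 10.5 CPM against 83.8 and 96.3 CPM. Sema5b had 1 UMI in each library in mature cells and 15 and 16 UMIs in newly formed ones, a CPM ratio, newly formed over mature cells, of 91.7 with an exact 95% interval of 23.3 to 791. Sema6b and Sema4g were called lower as well, with log2 fold changes of -2.17 and -1.24. The call of Sema4g was lost under DESeq2 (adjusted p = 0.243) and with the stricter cell filter (adjusted p = 0.111). Sema7a, a lipid-anchored semaphorin that binds Plxnc1, was the membrane semaphorin that rose. It had 35.0 and 37.9 CPM in mature cells, from 95 and 112 UMIs, against 2.89 and 0 CPM from 1 and 0 UMIs in newly formed ones. That ratio was 35.0, with an exact 95% interval of 6.21 to 1389 (adjusted p = 9.62e-08).

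Sema3d, the secreted member tested in this lineage, fell at this step: 8.83 and 6.77 CPM in mature oligodendrocytes, against 135.8 and 113 CPM in newly formed ones (-3.54 ± 0.25, adjusted p = 2.9e-12). From precursors to newly formed cells it was not called. Plxnb3 had 81.7 and 81.6 CPM in mature cells, against 237 and 253 CPM (-1.14 ± 0.16, adjusted p = 1.37e-06). Plxnb1, the receptor of Sema4d, rose at this step, with 44.5 and 52.5 CPM in mature cells, against 20.2 and 32.6 CPM (1.28 ± 0.28, adjusted p = 0.000619). That call was lost under DESeq2 (adjusted p = 0.054). In precursors Plxnb1 had 44.2 and 86.5 CPM, and the first step was not called (edgeR adjusted p = 0.0622). Efnb3 rose at both steps, to 723 and 716 CPM in mature cells, against 269 and 405 CPM in newly formed ones (1.53 ± 0.15, adjusted p = 1.66e-09). Mature oligodendrocytes fell into 3 clusters, and some members differed among them. Sema5a had 51.0 and 84.9 CPM in the cluster led by Hapln2 and 10.5 and 9.72 CPM in the largest cluster. Sema4f had 27.2 and 43.2 CPM in the cluster led by Lpar1 and 1.40 and 1.22 CPM in the largest. Efnb3 and Plxnb3 stayed between 643 and 819 CPM and between 74.0 and 89.2 CPM in the 3 clusters. These clusters were made from the same cells and the differences were not tested.

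**Figure D2:**
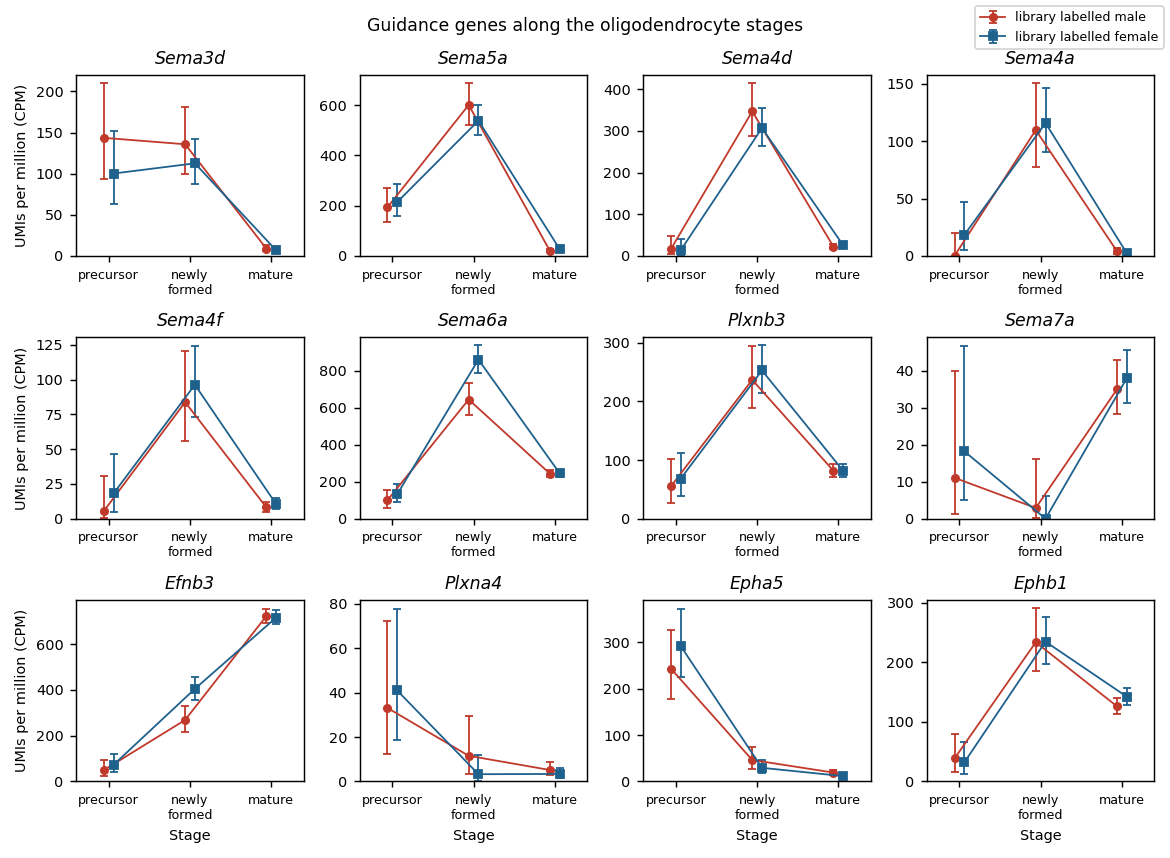
CPM of 12 guidance genes in precursors, newly formed and mature oligodendrocytes, 1 line per library, with exact 95% Poisson intervals that cover counting error only. Sema4d, Sema4a, Sema4f, Sema5a, Sema6a, Plxnb3 and Ephb1 are highest in newly formed cells in both libraries, Efnb3 increases at each stage, and Epha5 decreases.

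The other genes of these routes are given as counts, to be read against the 29.3% and 35% of all genes called at the 2 steps. Of 27 plexin-route listed genes, 18 were tested between newly formed oligodendrocytes and precursors, and 7 were called higher and 2 lower, 50% of those tested. Fyn, a kinase that acts downstream of several guidance receptors, was higher by 3.61 on the log2 scale (SE 0.17) and Dpysl2, a collapsin response mediator, by 2.54 (SE 0.15). Between mature and newly formed cells 4 were called higher and 9 lower, 72.2%. Fyn fell by 4.89 (SE 0.15), and Cntn2, an adhesion molecule, was higher by 5.65 (SE 0.25). Of 19 listed genes of the Eph route, 13 were tested, with 3 called higher and 1 lower in newly formed cells and 1 higher and 2 lower in mature cells. Those shares, 30.8% and 23.1%, were near or below the shares of all genes. Chn2, a Rac-regulating chimerin, was higher by 4.91 (SE 0.31) at the first step and fell by 1.04 (SE 0.14) at the second. Of 21 netrin, Slit and related genes, 6 were tested, with 2 called in each direction and then 1 higher and 3 lower. The netrin receptor Unc5b was higher by 5.51 (SE 0.65) and then by 1.98 (SE 0.18).

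Set against neurons, which also serve as the comparison for vascular cells below, the oligodendrocyte lineage as a whole had 14 of 50 tested members higher and 29 lower, against 70.5% of all 13381 genes called, 32.5% higher and 38% lower. At 2-fold or more, 12 were higher and 25 lower, where 2646 of all genes were higher and 3355 lower. Over members the median log2 fold change was -1.48, or -1.21 with the members at 0 UMIs in 1 arm set to their bound, against -0.10 over all genes. DESeq2 called 13 higher and 27 lower, and 3693 and 3704 of all 13381 genes. Fitted values sat 0.48 above the plain log2 ratios as a median. Of the 50, 9 had fewer than 10 UMIs in 1 arm.

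All tested membrane semaphorins were called, 7 higher and 6 lower. Plxnb3 stood furthest apart, with 96.8 and 108.5 CPM in the oligodendrocyte lineage, against 0.464 and 0.692 CPM in neurons (log2 fold change 7.90 ± 0.18, adjusted p = 7.67e-16). Sema6a had 278 and 338 CPM against 53.3 and 52.8 CPM (3.02 ± 0.10), and Efnb3 637 and 628 CPM against 102.7 and 116 CPM (3.02 ± 0.10). Sema3d, Sema4d, Efna2, Plxnb1, Ephb1, Sema7a and Sema4c were higher by 1.83 to 3.50 on the log2 scale. Lower in the lineage were Sema3c, Efna5, Efna3, Epha10, Plxna4, Epha7, Plxna2, Efnb2, Plxnc1 and Epha5, by -4.38 to -2.75. Plxna4 had 7.40 and 5.55 CPM in the lineage, against 98.1 and 100.4 CPM in neurons, and Epha5 34.5 and 30.6 CPM against 303 and 306 CPM. Of the 11 tested Eph receptors 1 was higher, Ephb1, and 8 were lower. Mature cells made up most of the lineage, and single stages were not tested against neurons. In precursors Efnb3 had 49.7 and 72.9 CPM and Ephb1 38.7 and 31.9 CPM, below neurons, where Ephb1 had 46.1 and 42.5 CPM. Precursors had 243 and 291 CPM of Epha5, near the neuron level. Sema6a (99.4 and 132 CPM) and Plxnb3 (55.2 and 68.3 CPM) were above neurons in precursors too.

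Hcrt-high neurons had lower Nrp1 and Nrp2 than other excitatory neurons, and Eph receptors and ephrins were called in both directions. Of 9 tested Eph receptors 2 were higher and 5 lower, and of 6 ephrins 2 were higher and 4 lower. Of 43 tested members, 10 were called higher and 19 lower, against 40.7% of all 11830 genes called, 21.1% higher and 19.5% lower. At 2-fold or more, 2 were higher and 15 lower, where all genes gave 6.77% higher and 10.2% lower. The members had a median log2 fold change of -0.40, against -0.01 over all genes, and the median shift by TMM was 0.25. DESeq2 called 4 higher and 10 lower, and 933 and 681 of all 11830 genes. Of the 43, 9 had fewer than 10 UMIs in 1 arm. Hcrt-high neurons were also deeper, with medians of 16101 and 18593 UMIs per cell, against 7806 and 8099 in other excitatory neurons.

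Ephb1 had 3.51 and 2.21 CPM in Hcrt-high neurons, from 4 and 3 UMIs, against 68.1 and 59.0 CPM in other excitatory neurons (log2 fold change -4.23 ± 0.31, adjusted p = 4.34e-19). Efnb2, a ligand of Ephb1, had 1.75 and 2.21 CPM, against 19.7 and 22.3 CPM (-3.13 ± 0.45, adjusted p = 2.13e-08). Nrp2 had 13.2 and 14.0 CPM, against 80.4 and 82.7 CPM (-2.33 ± 0.20, adjusted p = 4.58e-16), and Nrp1 14.0 and 12.5 CPM, against 46.4 and 47.8 CPM (-1.58 ± 0.23, adjusted p = 2.02e-08). Both neuropilins, the binding partners of secreted semaphorins, were thus low in both libraries. Epha10, an Eph receptor without kinase activity, had 7.90 and 14.8 CPM against 68.1 and 63.8 CPM (-2.25 ± 0.22, adjusted p = 1.35e-13). Epha4 had 47.4 and 53.9 CPM against 125 and 131.5 CPM (-1.09 ± 0.14, adjusted p = 5.26e-10). Plxna1, Ephb6, Epha7 and Efna3 were lower by -1.28 to -1.14. Under DESeq2 the calls of Epha7 and Efna3 were lost (adjusted p = 0.0902 and 0.0714), and with thinned cells that of Plxna1 (adjusted p = 0.367).

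Higher in Hcrt-high neurons were the secreted Sema3e, a ligand of Plxnd1, and Sema5a. Sema3e had 29.8 and 43.5 CPM in Hcrt-high neurons, against 13.7 and 12.2 CPM in other excitatory neurons (1.77 ± 0.22, adjusted p = 2.82e-10). With cells thinned to 3000 UMIs, its adjusted p was 0.131, the highest of its 10 alternatives, which reached down to 5.3e-15. Sema5a had 129.8 and 156 CPM, against 82.7 and 83.0 CPM (1.04 ± 0.11, adjusted p = 4.51e-12). Plxna4 had 102 and 102 CPM, against 109.7 and 108.4 CPM, and was not called. Efnb3, Efnb1, Epha3 and Epha5 were called higher at less than 2-fold, and are named after their values were seen. Efnb3 had 168 and 173 CPM in Hcrt-high neurons, against 113 and 123 CPM in other excitatory neurons (0.78 ± 0.11, adjusted p = 1.09e-08).

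Pmch-high neurons had higher Plxna2, Sema3c, Efna5 and Epha5 and lower Plxnc1, Epha4, Nrp2 and Nrp1 than other excitatory neurons. Both gates were set against the same other excitatory neurons, so their values are given side by side and not as an overlap. Of 43 tested members, 10 were called higher and 16 lower in Pmch-high neurons, against 37.3% of all 11793 genes called, 19.7% higher and 17.6% lower. At 2-fold or more, 7 were higher and 12 lower, where all genes gave 6.25% and 7.62%. The median log2 fold change was -0.18 over the members and -0.03 over all genes, and the median shift by TMM was 0.26. DESeq2 called 7 higher and 10 lower, and 957 and 453 of all 11793 genes. Of the 43, 6 had fewer than 10 UMIs in 1 arm. Pmch-high neurons had medians of 14237 and 12947 UMIs per cell.

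Plxna2, a receptor for Sema6a and, with neuropilins, for secreted semaphorins, had 214 and 163 CPM in Pmch-high neurons, against 52.1 and 53.7 CPM in other excitatory neurons (log2 fold change 2.10 ± 0.11, adjusted p = 1.2e-21). Sema3c had 65.6 and 78.2 CPM against 21.7 and 26.1 CPM (1.85 ± 0.17, adjusted p = 2.43e-13). Efna5 had 143 and 161 CPM against 58.0 and 55.0 CPM (1.68 ± 0.11, adjusted p = 1.04e-17). Its receptor Epha5 had 529 and 484 CPM against 288 and 291 CPM (1.07 ± 0.08, adjusted p = 4.69e-16). Epha7 and Sema6d were higher by 1.06 and 1.01, with log2 ratios in the libraries of 0.49 and 1.09 for Epha7 and of 1.08 and 0.34 for Sema6d. With thinned cells the call of Epha7 was lost (adjusted p = 0.53). In Hcrt-high neurons, Efna5 had 25.4 and 20.7 CPM and Plxna2 46.5 and 45.7 CPM.

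Lower in Pmch-high neurons were the receptors Plxnc1, Nrp2, Nrp1, Plxna4, Epha4 and Epha10 and the ephrins Efnb2 and Efna3. Plxnc1 had 6.28 and 9.42 CPM, against 57.4 and 58.1 CPM in other excitatory neurons (-2.65 ± 0.26, adjusted p = 2.67e-12). Epha4 had 23.7 and 18.8 CPM against 125 and 131.5 CPM (-2.30 ± 0.16, adjusted p = 1.16e-16). Nrp2 had 16.0 and 11.3 CPM against 80.4 and 82.7 CPM (-2.27 ± 0.20, adjusted p = 1.75e-13), and Nrp1 8.37 and 11.3 CPM against 46.4 and 47.8 CPM (-2.02 ± 0.25, adjusted p = 5.07e-09). Plxna4 had 39.1 and 36.7 CPM against 109.7 and 108.4 CPM (-1.26 ± 0.14, adjusted p = 4.54e-10). Efnb2, Efna3 and Epha10 were lower by -1.83 to -1.13. Efnb2 and Efna3 lost their calls under DESeq2 (adjusted p = 0.0879 and 0.113), and Nrp1, Efna3 and Epha10 with thinned cells (adjusted p = 0.221, 0.0679 and 0.263). Sema3a and Sema3e had no UMI in Pmch-high neurons in either library, against 148 and 138 UMIs in other excitatory neurons. Set against 3 UMIs over the group, they were at least 11.5-fold and 10.7-fold lower. These 2 were below the 20 CPM asked of named genes and were picked after their values were seen.

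**Figure D3:**
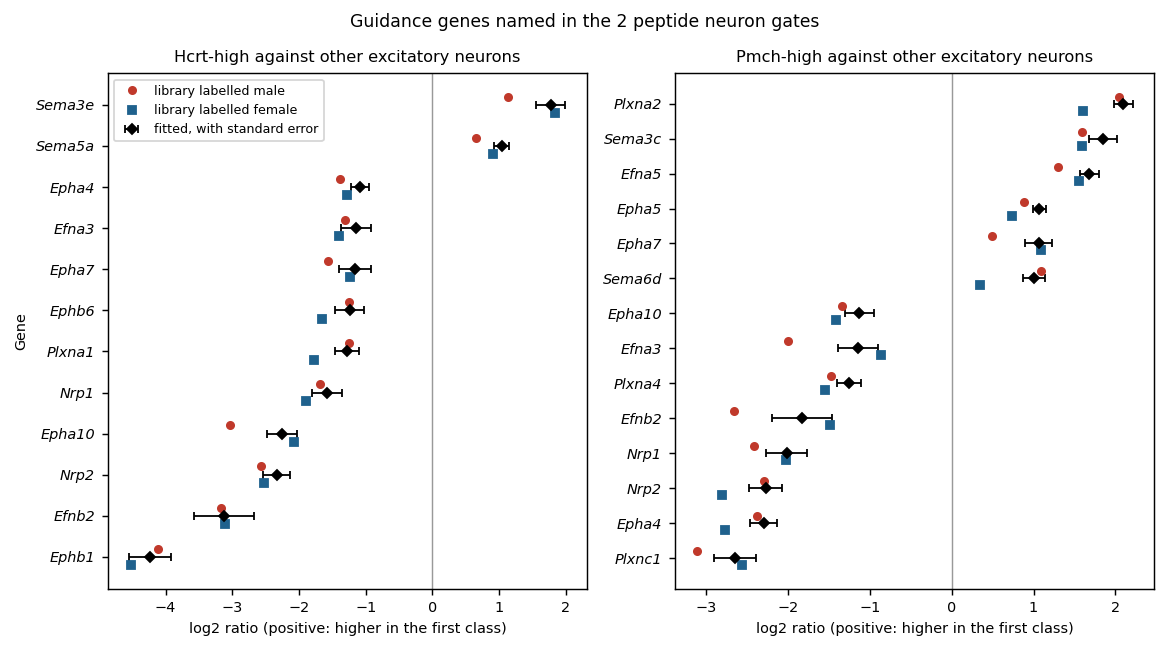
Log2 ratios of the guidance genes called at 2-fold or more and at 20 CPM or more in Hcrt-high (left) and Pmch-high (right) neurons against other excitatory neurons, with the fitted value and its standard error (black) and the plain CPM ratio of each library (coloured). Nrp1, Nrp2, Efnb2, Epha4, Epha10 and Efna3 lie left of 0 in both panels, Ephb1 lies furthest left for Hcrt-high neurons, and Plxna2 furthest right for Pmch-high neurons. Both panels share the same other excitatory neurons, so their values are not independent.

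Inhibitory and excitatory neurons as a whole differed by less than 2-fold in all but 1 of the guidance genes called. Of 46 tested members, 8 were called higher and 12 lower in inhibitory neurons. That is a larger share than the 21.7% of all 13231 genes called, 9.76% higher and 11.9% lower. At 2-fold or more 1 member was called, Sema3e, where 4.04% of all genes were, and it was below 20 CPM, so the rule for naming genes picked none. Members and all genes had the same median log2 fold change, 0.01, a value in which rises and falls offset each other. DESeq2 called 1 member higher and 1 lower, and 4.15% of all genes: Nrp1 and Ephb1, which are described for that reason and were picked after their values were seen. Nrp1 had 67.7 and 64.6 CPM in inhibitory neurons, against 36.0 and 39.8 CPM in excitatory neurons (0.76 ± 0.08, adjusted p = 7.63e-07). Ephb1 had 35.1 and 36.4 CPM, against 60.2 and 48.7 CPM (-0.64 ± 0.09, adjusted p = 3.08e-05). With Hcrt-high and Pmch-high cells left out of the excitatory neurons, Nrp1 remained higher by 0.49 and Ephb1 lower by -0.82. In that setting 8 members were called, and 879 genes higher and 946 lower of all 12997. The other called members changed by -1.07 to 0.63 on the log2 scale.

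The other route genes in the peptide gates are likewise given beside the 40.7% and 37.3% of all genes called. Of the 27 plexin-route genes, 24 were tested in Hcrt-high neurons, with 9 called higher and 4 lower, and 22 in Pmch-high neurons, with 8 higher and 4 lower, shares of 54.2% and 54.5%. Met, a receptor kinase that pairs with B-type plexins, was higher by 3.04 (SE 0.32) in Hcrt-high neurons. Rnd1, a small GTPase that binds plexins, fell by 1.58 (SE 0.19) in Hcrt-high and by 1.81 (SE 0.20) in Pmch-high neurons. Of the 19 Eph-route genes, all were tested, with 6 higher and 3 lower in Hcrt-high and 5 higher and 4 lower in Pmch-high neurons, 47.4% in each. Vav3, an exchange factor used by Eph receptors, was higher by 2.06 (SE 0.26) and 2.12 (SE 0.27). Of the netrin and Slit list, 14 were tested in each, with 2 higher and 8 lower in Hcrt-high and 6 higher and 1 lower in Pmch-high neurons, 71.4% and 50%. Slit2 fell by 3.72 (SE 0.31) and its receptor Robo2 by 2.24 (SE 0.24) in Hcrt-high neurons. Between inhibitory and excitatory neurons these 3 lists had 2, 4 and 4 genes higher and 9, 2 and 3 lower. The numbers tested were 26, 19 and 16, and all genes gave 1292 higher and 1574 lower of 13231. In the oligodendrocyte lineage against neurons the lists had 13, 4 and 5 higher and 11, 11 and 8 lower. There 27, 19 and 17 were tested, and all genes gave 4350 higher and 5081 lower of 13381.

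Across the 15 neuron clusters, 22 members reached 50 CPM in both libraries in some cluster of 10 or more cells per library. The rule for naming asked for 50 CPM in both libraries and 4 times the level in all neurons. Sema4d was the 1 member that passed it, in a smaller cluster led by the histamine-synthesis gene Hdc. It had 89.7 and 110.6 CPM there, against 12.2 and 10.4 CPM in all neurons, but from 12 and 19 UMIs in 4 and 6 cells. Other high points are given as values without a test. Sema5a had 333 and 316 CPM in the cluster led by Nts, Cartpt and Crh, against 86.7 and 87.1 CPM in all neurons. Efnb2 had 67.1 and 100.6 CPM in the cluster led by Sst, against 19.2 and 22.5 CPM. Epha3, below 50 CPM and named after its values were seen, was over 4 times its level in all neurons in that same cluster, with 32.0 and 34.0 CPM from 21 and 24 UMIs, against 7.25 and 7.46 CPM. Ephb1 had 116 and 108.5 CPM in an Ebf3-led cluster, against 46.1 and 42.5 CPM. Epha10 was at 5.98 and 5.49 CPM in the cluster led by Ebf1 and Npy, which also had the highest Efnb3, 223 and 267 CPM against 102.7 and 116 CPM in all neurons.

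**Figure D4:**
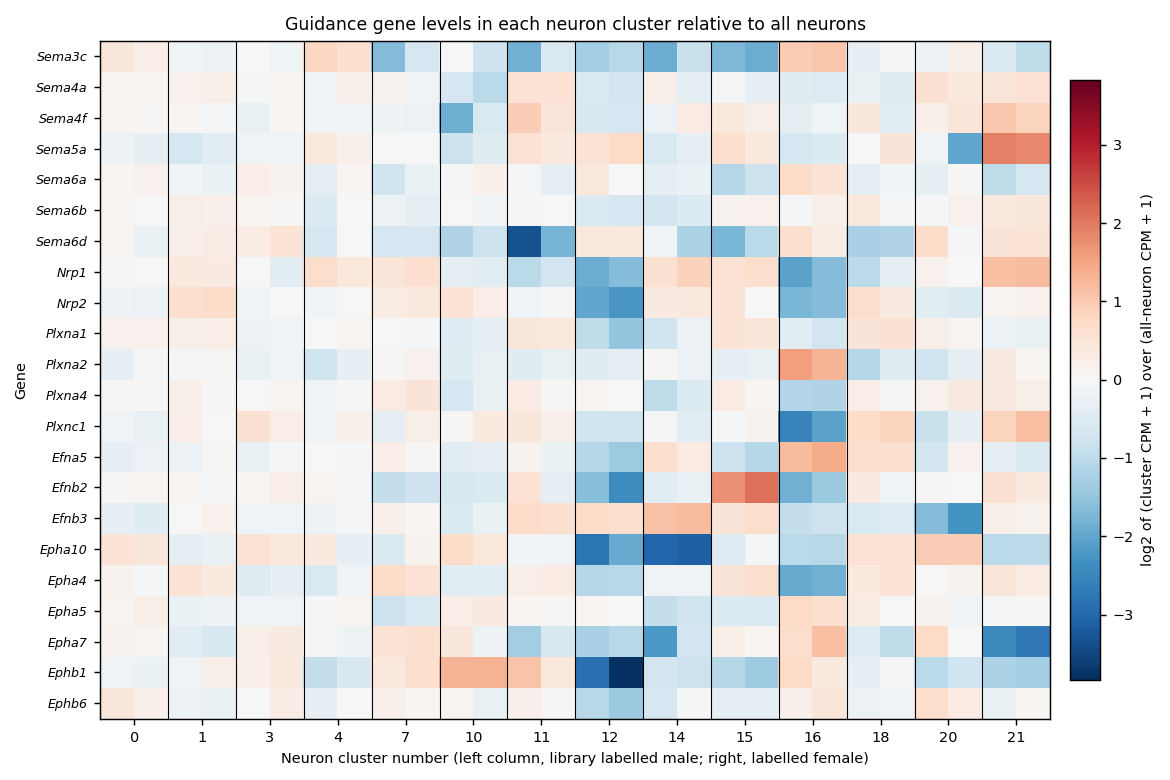
Level of 22 guidance genes in each of the 14 neuron clusters with 10 or more cells per library, as log2 of (cluster CPM + 1) over (all-neuron CPM + 1), 1 column per library. Red is above and blue below all neurons: cluster 12 (Hcrt-led) is blue for Ephb1, Epha10, Nrp2 and Efnb2, cluster 16 (Pmch-led) is red for Plxna2 and Efna5, cluster 21 (led by Nts) is red for Sema5a and cluster 15 (led by Sst) for Efnb2.

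In vascular cells Ephb4, Sema3g, Plxnd1 and Efna1 were well above their levels in neurons, which were below 2 CPM. Vascular cells as a whole include the mixed cells, which have markers of more than 1 vascular class. Of 50 tested members, 16 were called higher and 26 lower in all vascular cells, against 63.4% of all 13381 genes called, 30.1% higher and 33.3% lower. At 2-fold or more, 14 were higher and 23 lower, where 2986 of all genes were higher and 3197 lower. The members had a median of -0.997 on the log2 scale, against -0.11 over all genes, and the median shift by TMM was 0.15. Of the members 8 were tested but not called. DESeq2 called 15 higher and 22 lower, and 3791 and 3210 of all 13381 genes. Of the 50, 20 had fewer than 10 UMIs in 1 arm.

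Ephb4, the Eph receptor known from veins, had 68.4 and 56.3 CPM in vascular cells, from 51 and 55 UMIs, against 0.290 and 0.198 CPM in neurons (log2 fold change 8.06 ± 0.38, adjusted p = 4.97e-11). Endothelial cells held 16 and 20 of these Ephb4 UMIs, mural cells 0 and 2 and fibroblasts 7 and 2, and the rest came from mixed cells. The Ephb4 ligand Efnb2, known from arteries, had 48.3 and 47.1 CPM, against 19.2 and 22.5 CPM (1.33 ± 0.20, adjusted p = 2.36e-05). Sema3g had 49.7 and 79.8 CPM against 0.580 and 0.741 CPM (6.73 ± 0.34, adjusted p = 4.28e-11). Plxnd1, an endothelial receptor for Sema3e, had 65.8 and 65.5 CPM against 1.68 and 1.43 CPM (5.54 ± 0.28, adjusted p = 4.31e-11). Efna1 had 61.7 and 25.6 CPM against 0.464 and 0.544 CPM (6.45 ± 0.41, adjusted p = 6.83e-10), with the library labelled male higher than the other in vascular cells. Sema3c and its receptor Nrp1 were also higher, by 3.53 and 2.94, as were Sema7a, Efnb1 and Sema4c. The call of Sema4c was lost with thinned cells (adjusted p = 0.16). Epha2, below the level for naming, had 26 UMIs in vascular cells and 1 in neurons. Endothelial cells held 1 and 2 of them, mural cells 1 and 0 and fibroblasts none, so most came from mixed cells.

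Lower in vascular cells were Efna3, Ephb2, Sema4f, Plxna3, Ephb1, Epha5, Ephb6, Sema4g, Epha10 and Sema4a, by -3.88 to -2.62 on the log2 scale. Sema4f had 2.68 and 4.09 CPM in vascular cells, against 47.1 and 47.9 CPM in neurons. Epha5 had 18.8 and 44.0 CPM, against 303 and 306 CPM. Of the 11 tested Eph receptors, 3 were higher and 8 lower. Of the 11 plexin and neuropilin genes 4 were higher and 5 lower, and the antisense transcript Plxna4os1 was also called higher. Of 27 plexin-route genes tested, 9 were higher and 14 lower. The vascular growth factor receptors Flt1 and Kdr were higher by 10.20 (SE 0.19) and 8.71 (SE 0.19). The Eph-route list had 8 higher and 7 lower of 19 tested. The netrin and Slit list had 5 higher and 9 lower of 17, with Robo4, the endothelial Robo, higher by 8.17 (SE 0.44). All genes gave 4029 higher and 4457 lower of 13381.

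Within the vasculature, endothelial cells were set against mural cells and against fibroblasts, each time with 11 members past the filter on low counts and the same endothelial sums. Against mural cells 6 were higher and 2 lower, where 31.5% of 3753 genes were called, 17.3% higher and 14.2% lower. Against fibroblasts 4 were higher and 2 lower, where 29.2% were called, 15.6% higher and 13.6% lower, and 27.8% at 2-fold or more. The members' medians were 2.18 and 0.36, against 0.06 and 0.02 over all genes, and the shifts by TMM were 0.34 and 0.20. DESeq2 called 3 higher and none lower against mural cells, where 9 members had an unadjusted p under 0.05 in edgeR's test. Against fibroblasts it called 2 higher and 1 lower. Over all 3753 genes DESeq2 called 308 higher and 215 lower against mural cells, and 298 and 265 against fibroblasts. Of the 11 members, 8 and 5 had fewer than 10 UMIs in 1 arm. The mural sums rest on 9 and 32 cells with 26934 and 156310 UMIs. These cells came from a cluster led by Acta2, Crip1, Tagln and Myl9. Rgs5, another mural marker, was a leading gene of the endothelial cluster. Of the 144 and 149 cells in that endothelial cluster, 69 and 83 were set apart as mixed. The mural values thus describe the Acta2-led cluster and may not hold for other mural cells.

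Sema3c had 492 and 588 CPM in endothelial cells, from 120 and 146 UMIs, and no UMI in mural cells, at least 33.0-fold higher against 3 UMIs over the group. In fibroblasts it had 52.9 and 0 CPM from 6 and 0 UMIs (log2 fold change 4.60 ± 0.52, adjusted p = 7.7e-14). Under DESeq2 neither call held (adjusted p = 0.138 and 0.326). Nrp1 had 554 and 403 CPM in endothelial cells, against 186 and 44.8 CPM in mural cells (2.84 ± 0.47, adjusted p = 2.24e-07) and 132 and 54.1 CPM in fibroblasts (2.62 ± 0.41, adjusted p = 2.69e-08). Sema7a had 176 and 237.5 CPM in endothelial cells, with 0 and 2 UMIs each in mural cells and in fibroblasts. The CPM ratios were 19.0 (exact 95% interval 5.12 to 159) and 25.2 (6.79 to 210.5). Sema6a had 139 and 185 CPM in endothelial cells, against 0 and 25.6 CPM in mural cells and 26.5 and 61.8 CPM in fibroblasts. Its call against fibroblasts was lost under DESeq2 (adjusted p = 0.0574). Plxna2 was called higher than in mural cells from 24 against 2 UMIs, a ratio of 4.47 (exact 95% interval 1.11 to 39.0), a call lost under DESeq2 (adjusted p = 0.193), without the filter on low counts (0.0569) and with mixed vascular cells kept (0.174). Efnb2 was called higher than in mural cells (2.18 ± 0.87, adjusted p = 0.0448), but its libraries went opposite ways, with 49.2 and 72.5 CPM in endothelial cells against 74.3 and 6.40 CPM in mural cells.

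Plxnb2, a receptor for Sema4c and other membrane semaphorins, had 12.3 and 12.1 CPM in endothelial cells, against 97.0 and 147 CPM in fibroblasts (-3.06 ± 0.67, adjusted p = 7.61e-05). Efnb1 had 16.4 and 28.2 CPM against 70.6 and 92.7 CPM in fibroblasts (-1.64 ± 0.66, adjusted p = 0.0475), a call that 6 of 9 alternatives ended, with adjusted p from 0.0539 to 0.494. The neuron markers summed to 1120 and 965.5 CPM in fibroblasts, and their part was not tested. Efna5 and Epha5 were lower in endothelial than in mural cells. Epha5 had 24.6 and 24.2 CPM against 148.5 and 147 CPM, and Efna5 8.20 and 4.03 CPM against 74.3 and 70.4 CPM, from 2 and 11 UMIs in mural cells. Beside this, the 10 neuron markers, all detected, summed to 348.5 and 511 CPM in endothelial cells, against 1002 and 2924 CPM in mural cells, and their part in the difference was not tested. Both calls were lost under DESeq2 (adjusted p = 0.135 for Efna5 and 0.172 for Epha5), and with doublets kept the log2 fold change of Epha5 was -0.28 (adjusted p = 0.763). Ephb4, Plxnd1 and Sema3g did not pass the filter here. In endothelial cells Ephb4 had 65.6 and 80.5 CPM, Plxnd1 49.2 and 88.6 CPM and Sema3g 53.3 and 92.6 CPM. In fibroblasts they had 61.8 and 15.5 CPM, 17.6 and 46.3 CPM, and no UMI.

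In endothelial against mural cells the plexin-route list had 5 genes higher and 2 lower of 12 tested, the Eph-route list 4 higher and 1 lower of 6, and the netrin and Slit list 2 in each direction of 5. Flt1 was higher by 8.21 (SE 0.44) and Slit2 fell by 4.07 (SE 1.01). Against fibroblasts the same lists had 6 higher and 1 lower, 3 higher and none lower, and 2 in each direction. All genes gave 650 higher and 534 lower of 3753 against mural cells, and 584 and 512 against fibroblasts. Arhgef15, an endothelial exchange factor that binds Eph receptors, was higher by 3.97 (SE 0.80) and 3.51 (SE 0.69).

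**Figure D5:**
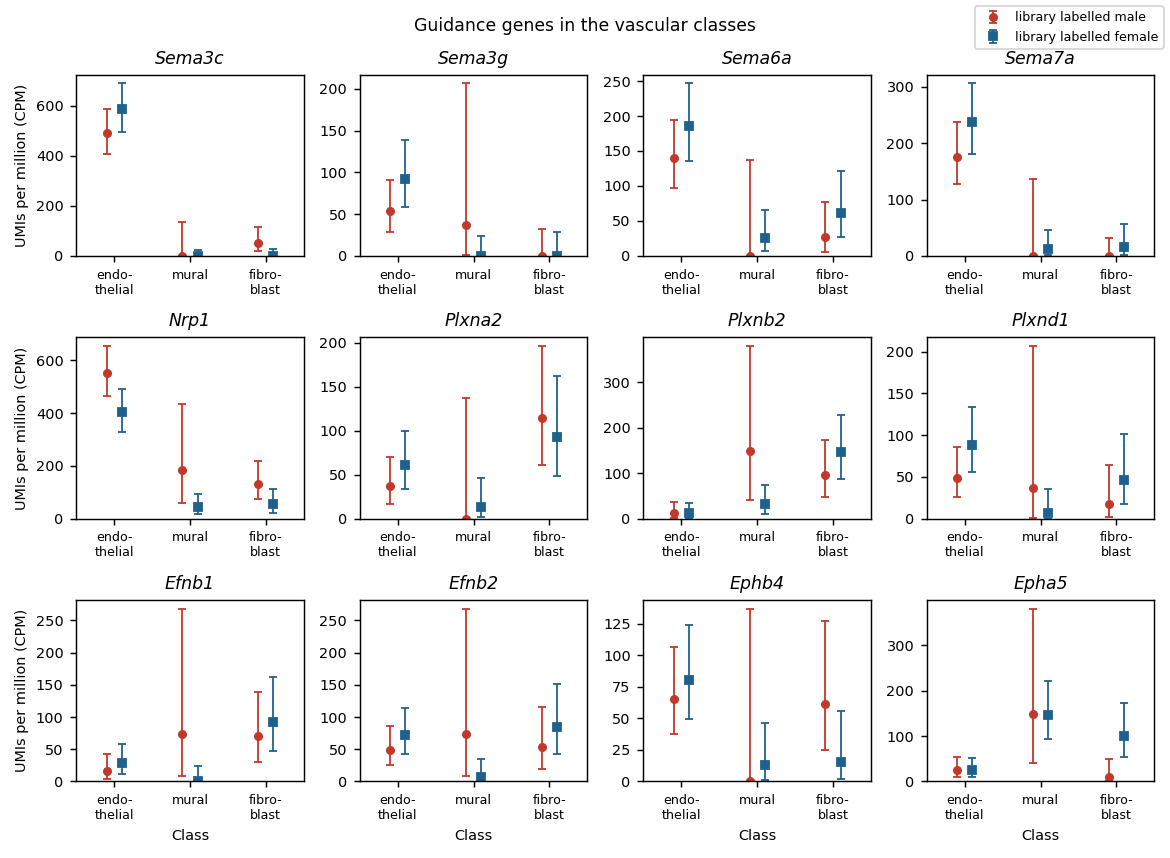
CPM of 12 guidance genes in endothelial cells, mural cells and fibroblasts, 1 point per library, with exact 95% Poisson intervals that cover counting error only. Sema3c, Sema7a, Sema6a and Nrp1 are highest in endothelial cells in both libraries, Plxnb2 and Efnb1 are higher in fibroblasts than in endothelial cells, and the intervals of the library labelled male are wide in mural cells.

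The libraries themselves gave close levels. With 1 library per label there is no test between them. In neurons 0 of 46 members with 50 or more UMIs differed by more than 1.5-fold, where 3.78% of all genes did, and the ratios ranged from 0.734 to 1.19. In the oligodendrocyte lineage Nrp2, Ephb2 and Sema4f, 3 of 26 members, passed 1.5-fold, where 5.9% of all genes did. Each was lower in the library labelled male, and the exact 95% interval of the ratio included 1 for Ephb2. In newly formed oligodendrocytes 3 of 13 members passed it, where 14.9% of all genes did: Sema6d, Efna2 and Efnb3. In vascular cells 4 of 17 passed it, where 16.8% of all genes did: Sema6d (ratio 0.491), Epha5 (0.437), Sema3g (0.627) and Efna1 (2.39, exact 95% interval 1.45 to 4.10). In mature oligodendrocytes Epha5 (1.65) and Ephb6 (0.663) passed it, 2 of 17, where 5.78% of all genes did.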

How the data were processed

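The authors deposited, for each of 2 pooled libraries, a sparse matrix of raw UMI counts per gene and cell barcode. Cell Ranger 2.2.0 and GRCm38 (mm10) are named per the submitters' processing notes, and no source used here says whether strand was used. The members, gene lists and tests were chosen with earlier results of these data known.

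Cells with 500 or more genes and 20% or less mitochondrial UMIs were kept, and 95 and 115 cells with the highest Scrublet scores were removed. Clustering used scanpy 1.11.5 (2000 variable genes without the members, 30 components, 15 neighbours, Leiden resolution 1). Clusters were named from markers, and a class needed 3 markers in 25% of cells, a rule set after the clusters were seen. Vascular cells with 4 or more markers of another vascular class were set apart as mixed, also after seeing the data.

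UMIs were summed per class and library and tested with edgeR 4.0.16 (filterByExpr, TMM, quasi-likelihood, library as block, 2-sided). The library pairs the classes, since its cells come from the same animals. Fits of neuron gates had 1 residual degree of freedom, and the stage, vascular and lineage fits, of 3 classes each, had 2. The p-values concern a class difference over 2 pools, not over animals. They draw mostly on a spread estimated over all genes, with prior degrees of freedom from 13.9 in the lineage fits to 150 in the vascular fits. A low p therefore does not show that the 2 libraries gave close ratios for that gene. DESeq2 1.42.0 was an alternative. Library ratios had 0.5 counts added to each arm. The text names members with adjusted p under 0.05, 2-fold or more, 20 CPM or more in the higher class and 1 direction in both libraries, up to 10 each way. The fits were tested on simulated data. A missing call does not show that classes were alike. Exact intervals cover counting error only.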

Additional observations from a re-analysis of the deposited data

Results flagged for a closer look

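Efnb2, the ligand of Ephb4, moved in opposite directions in the libraries when endothelial cells were set against mural cells. The log2 ratio was -0.86 in the library labelled male and 2.96 in the library labelled female, and the difference between them was not tested. The mural values were 74.3 and 6.40 CPM from 2 and 1 UMIs, in 9 and 32 cells.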

How the results depend on the processing

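Calls were counted again under each alternative, and the cause of a changed count was not tested unless stated. DESeq2 called 2 members between inhibitory and excitatory neurons (20 in the reported test), 14 in Hcrt-high (29) and 17 in Pmch-high neurons (26), 12 between mature and newly formed oligodendrocytes (19), and 3 in endothelial cells both against mural cells (8) and against fibroblasts (6). With cells thinned to 3000 UMIs, which leaves fewer cells and genes, the counts in the same order were 7, 16, 14, 12, 4 and 3, and 3 between newly formed cells and precursors (18). With all classes in 1 fit, 4 members were called between inhibitory and excitatory neurons, 15 against mural cells and 10 against fibroblasts. Counts over all genes moved too. Between inhibitory and excitatory neurons 1292 genes were higher and 1574 lower in the reported test, and 183 and 366 under DESeq2. Thinned cells gave 507 and 663 of 11555, and all classes in 1 fit 234 and 382 of 9218. Thinned cells gave 869 and 773 of 9483 genes in Hcrt-high and 590 and 376 of 9582 in Pmch-high neurons. They gave 897 and 797 of 5041 between mature and newly formed oligodendrocytes, and 262 and 68 between newly formed cells and precursors. All-gene counts under DESeq2 stand with each comparison above. Against mural cells 650 of 3753 genes were higher and 534 lower, and 1065 and 823 of 9218 with all classes in 1 fit. Against fibroblasts 584 of 3753 were higher and 512 lower, and 768 and 707 of 9218 in that fit. With thinned cells 231 and 176 of 1134 genes were called against mural cells, and 230 and 191 against fibroblasts. The fit with no replicate block, that is without the library, called 6 between inhibitory and excitatory neurons, and leaving Hcrt-high and Pmch-high cells out gave 8. Over all genes these settings called 317 and 568 of 13231, and 879 and 946 of 12997. Against mural cells 5 were called with doublets kept, 5 with the stricter cell filter and 5 with mixed vascular cells kept, and against fibroblasts 10 without the filter on low counts. Those settings gave 622 and 376 of 4205, 575 and 393 of 2571 and 471 and 393 of 3819 genes against mural cells. Against fibroblasts without that filter 691 and 627 of 9725 genes were called. With the stricter filter 1 member passed 1.5-fold between the libraries in neurons. Of 108 results for named genes, 31 lost their call under some alternative, 17 of them under DESeq2 and 15 with thinned cells. With thinned cells 80 kept it, and the remaining ones had no test there. No direction was reversed, but naming asked for 1 direction in both libraries and the alternatives reuse the same cells. Leaving out either library leaves 1 sum per class and hence the other library's ratio with no test. Depth was low in precursors (181116 and 219600 UMIs), fibroblasts (113352 and 129473) and mural cells (26934 and 156310).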
